A study of Homo sapiens with 6 samples.

Results

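The snoRNA host genes are transcripts whose introns carry small nucleolar RNAs (snoRNAs), and 32 of the 58302 genes counted in this experiment were taken as members. They were taken by symbol, as every gene named SNHG followed by a number, together with GAS5, ZFAS1, EPB41L4A-AS1 and DANCR. All 32 had a row in the count tables, and the set was chosen with earlier results of these data known. A375, a human melanoma line, was sequenced in 6 libraries that fell into 2 groups of 3, cells carrying an empty vector and cells with the genotype HMGB2OE, which stably overexpress HMGB2, a chromatin protein that binds and bends DNA. The lines were made by lentiviral transduction and drug selection, so each group is a transduced line and not a set of independent transductions, and the study's reporting form describes the replicates as technical. P-values therefore measure the spread between pellets of a line, which may be technical. No promoter for the overexpression vector was taken from the sources used here, and neither the age of the cultures nor further treatments are in the labels.

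A snoRNA guides a chemical change in ribosomal RNA. The box C/D class directs 2′-O-methylation and the box H/ACA class directs pseudouridylation, while the related scaRNAs act on spliceosomal RNA in Cajal bodies. Most human snoRNAs are not transcribed from promoters of their own: they are cut from the introns of a host gene after splicing, and the spliced exons of that host become a separate RNA. In the host genes studied here the spliced RNA codes for little or no protein, and for several of them it is held at a low level by nonsense-mediated decay, which breaks down RNAs with early stop codons. Several start with a tract of pyrimidines, as do the mRNAs of ribosomal proteins and translation factors (5′TOP mRNAs). Because the libraries were made from poly(A)-selected RNA, the counts measure the spliced host RNA, and mature snoRNAs, which lack a poly(A) tail, were largely outside the measurement.

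Between 45925053 and 56755212 reads per library were assigned to genes. HMGB2 itself was at 7250, 7729 and 7562 normalized counts (counts divided by the DESeq2 size factor of the library) in the empty vector libraries and at 15095, 16848 and 14609 in the overexpression libraries, a log2 fold change of 1.05 (standard error 0.10, adjusted p = 4.4e-22 in DESeq2). The libraries carry the labels' difference in HMGB2, although introduced and endogenous HMGB2 RNA cannot be told apart. The third replicates stood apart from the others: over 16692 genes the deviations of both libraries numbered 3 from their group means had a correlation of 0.35, and overexpression replicate 3 had 10.6% multimapped reads against 2.58% to 4.89% in the other libraries. Of 10 melanoma and melanocyte markers, VIM, PRAME, S100B and MITF had 1358 or more counts in every library, and MLANA, TYRP1, DCT and TYR stayed at 24 counts or fewer. SOX10 had 0 counts and PMEL 50 to 68, against 28863 to 56464 and 1529 to 2017 in the sum of the 2 strand-specific columns. The first of these columns held 50.1% to 50.2% of their counts in each library, so they did not separate reads by strand. Those reads therefore cannot be assigned to SOX10 or PMEL. DESeq2 adjusted p of the markers were 0.184 or above, and 12 markers of keratinocytes, fibroblasts, leukocytes and endothelium, with PTPRC at 0, summed to 72.5 to 105 CPM (counts scaled to the assigned total) with the empty vector and 101 to 122 with HMGB2 overexpression. Of these 12, 5 (COL1A1, PDGFRB, KRT14, EPCAM and CDH1) had 100 or more counts in every library, and 5 stayed under 100 in every library. Among the latter, CD68 had 0 to 4 counts but 191 to 264 in the strand-specific sum, so its level could not be read. COL1A1 was at 1816 to 3499 counts.

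The windows around the start of transcription are shown for the 3 members that passed the test and for 6 members that start with a pyrimidine tract, because this tract is the feature that 5′TOP RNAs share. Each window has 10 bases before the start and 20 bases from it, 5′ to 3′ on the strand of the gene, taken from RefSeq on GRCh38.p14. Capitals mark the unbroken run of C and T that begins at the first transcribed base.
SNHG7 at chr9:136728165-136728194, minus strand: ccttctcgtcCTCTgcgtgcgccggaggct
SNHG17 at chr20:38435309-38435338, minus strand: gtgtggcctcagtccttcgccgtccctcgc
SNHG14 at chr15:24823598-24823627, plus strand: gtcctcctgcgccgacctcgaatgcggtcc
SNHG5 at chr6:85678714-85678743, minus strand: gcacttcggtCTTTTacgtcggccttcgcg
SNHG32 at chr6:31834906-31834935, plus strand: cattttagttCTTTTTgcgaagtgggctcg
SNHG19 at chr16:2155339-2155368, minus strand: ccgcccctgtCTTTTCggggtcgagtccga
ZFAS1 at chr20:49278632-49278661, plus strand: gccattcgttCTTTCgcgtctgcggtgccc
SNHG12 at chr1:28581854-28581883, minus strand: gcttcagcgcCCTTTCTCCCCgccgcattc
SNHG4 at chr5:139274091-139274120, plus strand: ctcccggctgCCCTTTCCCCTCCggcctct

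A RefSeq start was found for 28 of the 32 members. A C at the first base followed by at least 4 bases that are each C or T was present in 7 of these 28 (25.0%), read on the strand of the gene, and in 4.07% of all 35116 RefSeq starts. The same pattern was present in 54.9% of 82 ribosomal protein genes. SNHG18, a weakly expressed member, is the seventh. SNHG7 begins with a run of 4 pyrimidines, 1 short of the pattern, while SNHG17 and SNHG14 begin with none. These are descriptions of letters at an annotated start, and a start used in A375 cells may lie elsewhere. For SNHG14, GAS5, SNHG3 and, marginally, SNHG4 the RefSeq start lies upstream of the gene as GENCODE draws it.

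Expression of the members spanned several orders of magnitude. SNHG29, GAS5 and SNHG5 had the highest mean normalized counts, and these 3 genes alone took 54.5% to 59.2% of all member counts in empty vector libraries and 59.6% to 62.0% in overexpression libraries. In CPM per kilobase of annotated exon, which allows levels to be compared between genes, SNHG32 was at 81.5 ± 6.93 (SD, n = 3) with the empty vector, SNHG29 at 73.7 ± 10.1, GAS5 at 63.7 ± 5.62, SNHG19 at 53.0 ± 4.29 and SNHG6 at 49.7 ± 1.92. These are the 5 highest members on that scale, and among neighbours in this order only GAS5 and SNHG19 differed by more than their summed SDs. The order depends on the exons annotated and on reads lost to overlapping genes. All members together took 0.214% to 0.245% of assigned reads with the empty vector and 0.216% to 0.236% with HMGB2 overexpression, so the groups overlapped in the summed level.

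HMGB2 overexpression was accompanied by lower SNHG7 and SNHG17 and higher SNHG14, and no other member passed the test. Of the 27 members with an adjusted p, 1 was called higher and 2 lower (11.1% called), taking a p under 0.05 in DESeq2 after Benjamini-Hochberg adjustment as a call. Among all 18836 genes with an adjusted p, 4.94% were called, 2.29% higher and 2.64% lower. The median log2 fold change of the 27 members was -0.18, against 0.0027 over all genes tested, and 17 of the 27 were below 0. Medians over members were also taken in each library, as log2 values relative to the empty vector mean. They were -0.024, -0.069 and 0.10 with the empty vector and -0.20, -0.20 and 0.00054 with HMGB2 overexpression. The groups thus overlapped in this median, with overexpression replicate 3 above empty vector replicates 1 and 2. Without adjustment, 9 members had a lower and 2 a higher level at p under 0.05 in DESeq2, against 14.3% of all genes in either direction. With edgeR no member was called, at a background of 2.81%, and 11 of 25 members tested had an unadjusted p under 0.05, at a background of 16.5%. In bulk RNA, fewer cells expressing a gene and less RNA per cell cannot be told apart.

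**Figure D1:**
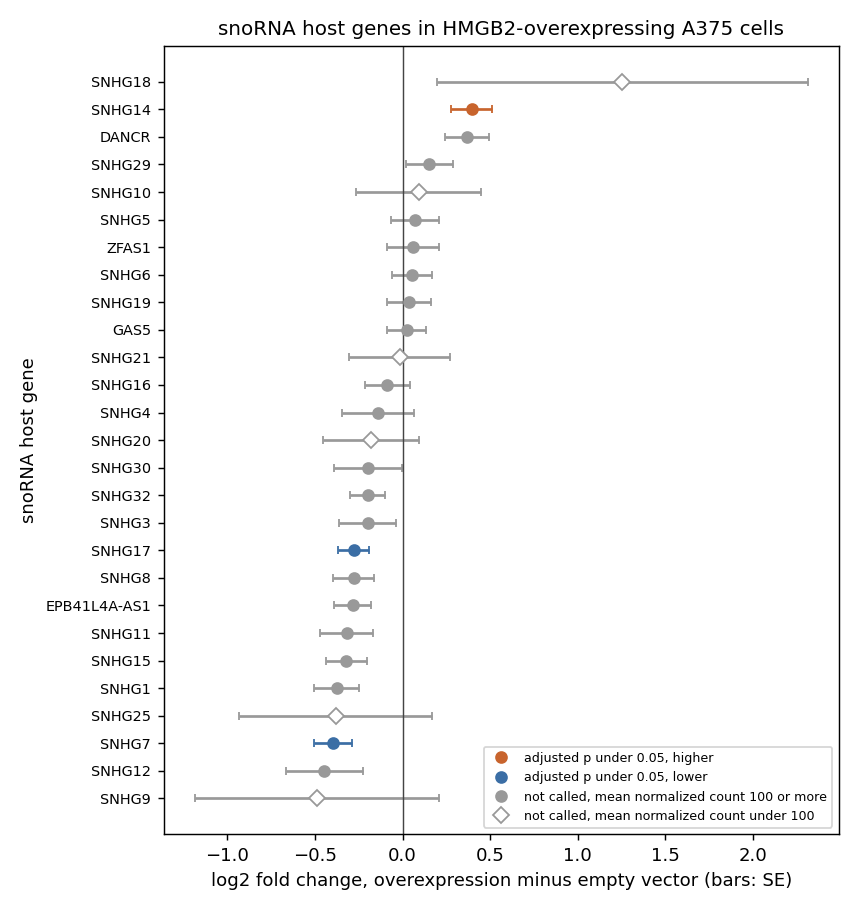
Log2 fold change (overexpression minus empty vector, horizontal axis) of the 27 members with an adjusted p, sorted by size, with bars for the SE of the DESeq2 fit. SNHG7 and SNHG17 (blue) lie below 0 and SNHG14 (orange) above, while the open symbols, members with a mean normalized count under 100, have wide bars.

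SNHG7 (ENSG00000233016, hg38 chr9:136721366-136728184, minus strand), host of the H/ACA snoRNAs SNORA17A and SNORA17B and a lncRNA studied in several cancers, was at 7128, 6828 and 6251 normalized counts in the empty vector libraries and at 5569, 4950 and 4834 in the overexpression libraries. Every overexpression library was below every empty vector library. The group means were 6736 ± 445 and 5118 ± 395 (SD, n = 3), a log2 fold change of -0.40 (standard error 0.11, adjusted p = 0.0097 in DESeq2). The call was lost without empty vector replicate 1 (DESeq2 adjusted p = 0.244), empty vector replicate 2 (0.129), overexpression replicate 2 (0.194) or overexpression replicate 3 (0.199), and kept without overexpression replicate 1 (0.0453) or empty vector replicate 3 (7.25e-05). The log2 fold change remained between -0.46 and -0.36 in all 15 alternatives. DIPK1B, a protein-coding gene on the opposite strand that shares exonic bases with SNHG7, had a log2 fold change of -0.24 (standard error 0.21, adjusted p = 0.708 in DESeq2).

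SNHG17 (ENSG00000196756, hg38 chr20:38419638-38435409, minus strand) carries the H/ACA snoRNAs of the SNORA71 family. It was at 4909, 4703 and 4643 normalized counts with the empty vector and at 3985, 3979 and 3784 with HMGB2 overexpression. The spread within each group was small for this gene, at 4751 ± 139 against 3916 ± 115 (SD, n = 3), and the groups did not overlap. The log2 fold change was -0.28 (standard error 0.09, adjusted p = 0.0426 in DESeq2), close to the threshold. The DESeq2 adjusted p passed 0.05 on leaving out replicate 1 (0.556) or 2 (0.318) of the empty vector and on leaving out replicate 1 (0.433), 2 (0.355) or 3 (0.487) of HMGB2 overexpression, and it was 0.0076 without empty vector replicate 3.

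SNHG14 (ENSG00000224078, hg38 chr15:24978583-25420336, plus strand) is the long imprinted transcript of the Prader-Willi region, which carries the SNORD116 and SNORD115 clusters and runs antisense to the ubiquitin ligase gene UBE3A. It held 84 of the 145 snoRNA and scaRNA genes found inside members. Its normalized counts were 1668, 1744 and 1463 with the empty vector and 2121, 2263 and 2028 with HMGB2 overexpression, with every overexpression library above every empty vector library. The means were 1625 ± 146 and 2137 ± 119 (SD, n = 3), a log2 fold change of 0.40 (standard error 0.12, adjusted p = 0.0188 in DESeq2). Only 73.9% of the reads that the 2 strand-specific columns gave to SNHG14 were kept in the unstranded column, because reads in a place shared with a gene on the other strand are set aside. In the sum of the strand-specific columns the log2 fold change was 0.33 (standard error 0.11, adjusted p = 0.0395 in DESeq2). Because these columns did not separate reads by strand, their sum can include reads of the gene on the other strand. This holds for every member read from the sum.

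Several genes share exonic bases with SNHG14, and values were taken for 2 of them, UBE3A and SNRPN, neither of which passed the test. UBE3A, on the opposite strand, had a log2 fold change of 0.03 (standard error 0.11, adjusted p = 0.964 in DESeq2), and SNRPN, on the same strand, of 0.63 (standard error 0.37, adjusted p = 0.475 in DESeq2). The SNHG14 call was lost without empty vector replicate 1 (DESeq2 adjusted p = 0.177) or 2 (0.0605) and without overexpression replicate 1 (0.237), 2 (0.301) or 3 (0.0962). Without empty vector replicate 3 it was 0.0105.

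Another 8 members averaging 100 or more normalized counts had groups that did not overlap but did not pass the test. In all, 11 of 21 members at this level had groups that did not overlap (52.4%), 9 with HMGB2 overexpression lower and 2 higher. Over the 12134 genes at the same level, 23.6% did not overlap, 12.2% lower and 11.4% higher. The median log2 fold change was -0.20 over the 21 members and -0.0036 over the 12134 genes. The medians per library given above for all tested members overlapped between the groups.

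SNHG1, whose introns hold a run of C/D snoRNAs from SNORD22 to SNORD30, was at 3452, 3531 and 4172 normalized counts with the empty vector and at 2980, 2557 and 3054 with HMGB2 overexpression. Its log2 fold change of -0.38 (standard error 0.13, adjusted p = 0.0588 in DESeq2) was close in size to that of SNHG7, with a larger standard error. DANCR, a lncRNA named for holding back differentiation of progenitor cells and host of SNORA26, was at 1918, 1869 and 2103 against 2325, 2403 and 2877. Its log2 fold change was 0.37 (standard error 0.12, adjusted p = 0.0601 in DESeq2), with overexpression replicate 3 the highest library.

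SNHG8, host of SNORA24, was at 4175, 4053 and 3473 normalized counts with the empty vector and at 3348, 3329 and 2966 with HMGB2 overexpression, a log2 fold change of -0.28 (standard error 0.12, adjusted p = 0.192 in DESeq2). EPB41L4A-AS1, host of SNORA13 and antisense to EPB41L4A, was at 3738, 3368 and 3814 against 3195, 2861 and 2909, a log2 fold change of -0.28 (standard error 0.11, adjusted p = 0.114 in DESeq2). SNHG32, host of SNORD48 and SNORD52, was at 8073, 6968 and 7194 against 6420, 6451 and 6490, a log2 fold change of -0.20 (standard error 0.10, adjusted p = 0.336 in DESeq2). In SNHG32 the overexpression libraries were nearly equal, with an SD of 35.2, and the empty vector libraries spread over more, with an SD of 584. The less abundant SNHG15, SNHG11 and SNHG12 had log2 fold changes of -0.32, -0.32 and -0.45, with DESeq2 adjusted p of 0.109, 0.280 and 0.327.

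**Figure D2:**
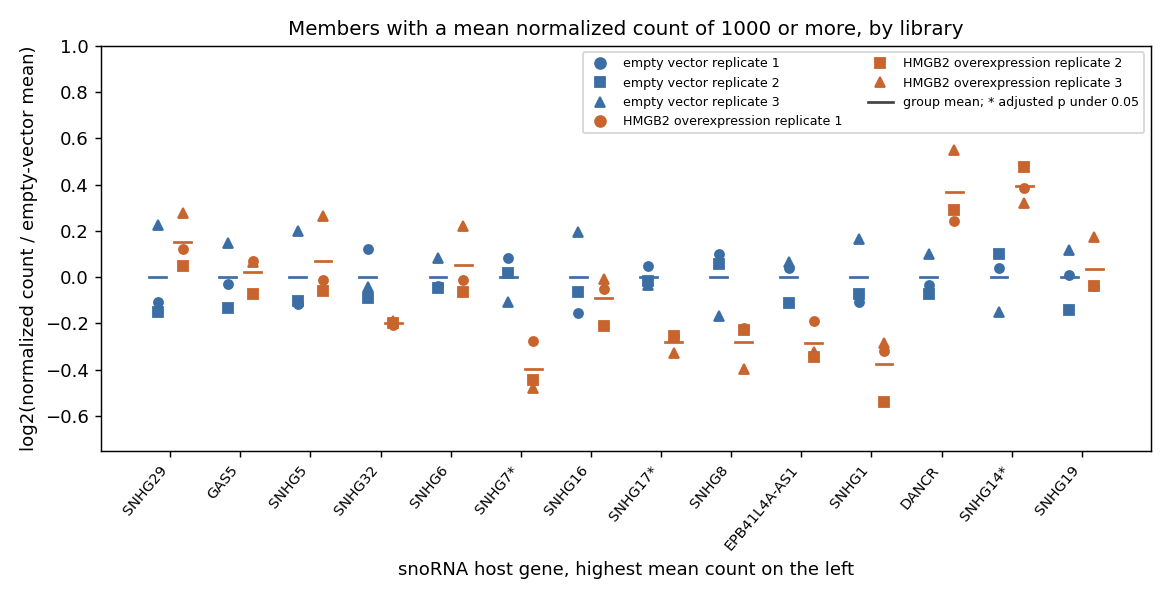
Level of the 14 members averaging 1000 or more normalized counts in each library, as log2 of the normalized count over the empty vector mean (vertical axis); symbols mark replicates, short lines group means, and stars the members with an adjusted p under 0.05. The orange points of SNHG7, SNHG17, SNHG8, EPB41L4A-AS1, SNHG1 and SNHG32 lie below all blue points, those of DANCR and SNHG14 lie above, and the triangles of replicate 3 are the highest in both groups for SNHG29, SNHG5, SNHG6, SNHG16, SNHG1, DANCR and SNHG19.

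The most abundant host genes did not pass the test and their groups overlapped. GAS5, named for its accumulation in growth-arrested cells and known as a decoy of the glucocorticoid receptor, was at 15580, 14497 and 17585 normalized counts with the empty vector and at 16675, 15120 and 16643 with HMGB2 overexpression. Its log2 fold change was 0.02 (standard error 0.11, adjusted p = 0.969 in DESeq2), so a change as large as that of SNHG7 lay more than 3 SE away. SNHG29, host of SNORD49A, SNORD49B and SNORD65, was at 30984, 30017 and 39041 against 36290, 34499 and 40406, with a log2 fold change of 0.15 (standard error 0.13, adjusted p = 0.716 in DESeq2). SNHG29 kept 59.1% of the reads given to it in the strand-specific columns. In their sum, which can include reads of the opposite gene, its log2 fold change was 0.21 (standard error 0.13, adjusted p = 0.515 in DESeq2).

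SNHG5, host of the SNORD50 snoRNAs, was at 14219, 14336 and 17679 normalized counts against 15272, 14764 and 18524, a log2 fold change of 0.07 (standard error 0.14, adjusted p = 0.903 in DESeq2). SNHG6, host of SNORD87, was at 6181, 6137 and 6707 against 6287, 6065 and 7402, a log2 fold change of 0.05 (standard error 0.12, adjusted p = 0.914 in DESeq2). In both genes replicate 3 was the highest library of its group. SNHG6 kept 71.6% of the reads given to it in the strand-specific columns and had a log2 fold change of 0.09 in their sum (standard error 0.12, adjusted p = 0.860 in DESeq2).

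SNHG16, host of C/D snoRNAs of the SNORD1 family, was at 4216, 4477 and 5369 normalized counts against 4518, 4045 and 4664, a log2 fold change of -0.09 (standard error 0.13, adjusted p = 0.863 in DESeq2). SNHG16 kept 81.0% of the reads given to it in the strand-specific columns, and their sum gave -0.08 (standard error 0.11, adjusted p = 0.860 in DESeq2). SNHG19, host of SNORD60, was at 1657, 1493 and 1787 against 1604, 1604 and 1858, a log2 fold change of 0.04 (standard error 0.12, adjusted p = 0.951 in DESeq2). The intermediate members SNHG3, ZFAS1, SNHG4 and SNHG30 had mean normalized counts between 239 and 827, overlapping groups and log2 fold changes of -0.20, 0.06, -0.14 and -0.20.

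The remaining 11 members were weakly expressed, with mean normalized counts under 100. SNHG21, SNHG20, SNHG10, SNHG25, SNHG9 and SNHG18 received an adjusted p, none below 0.697 (DESeq2), with SEs from 0.27 to 1.06 on the log2 scale, so a change of the size seen for SNHG7 was not detectable at this depth. SNHG26, SNHG28, SNHG31 and SNHG22 had too few counts for an adjusted p, and SNHG27 had no count in any library. SNHG22, which lies opposite MYO5B, had 319 reads over the 6 libraries in the strand-specific columns and kept 0.627% of them in the unstranded column. Those reads may be of MYO5B. Their log2 fold change in the strand-specific sum was 0.26 (standard error 0.29, adjusted p = 0.801 in DESeq2). SNHG28, SNHG10 and SNHG9 also kept under 90%, at 15.6%, 52.7% and 58.3%. No strand-specific value moved another member across the threshold.

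Within groups the members did not vary alike. Among the 21 members averaging 100 or more normalized counts, empty vector replicate 3 was the highest of its group for 15 (71.4%, against 44.3% of all 12134 genes at this level), and overexpression replicate 3 for 13 (61.9%, against 41.3%). SNHG7, SNHG17, SNHG8, SNHG14 and SNHG12 went the other way, with replicate 3 the lowest library in both groups. The median coefficient of variation of the 21 members was 9.62% with the empty vector and 7.34% with HMGB2 overexpression, against 11.2% and 7.77% over all genes at this level. What sets the third replicates apart was not tested.

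Results were therefore repeated without them. With replicates 1 and 2 alone, 9 members were called in DESeq2, 3 higher (SNHG14, DANCR and SNHG29) and 6 lower (SNHG7, SNHG17, SNHG1, SNHG8, EPB41L4A-AS1 and SNHG32), while the share of all genes called rose to 17.4%. Leaving out empty vector replicate 3 alone gave 7 members, 3 higher and 4 lower, at a background of 17.8%, and moved the median log2 fold change of the members to -0.042. Leaving out replicate 1 or 2 of the empty vector, or replicate 2 or 3 of HMGB2 overexpression, left no member called in DESeq2, with 6 or 8 members at an unadjusted p under 0.05. In these fits 155 to 213 of all 17788 to 18469 genes tested were called higher and 208 to 262 lower, so calls were few among all genes too. The unadjusted share over all genes was not taken. Leaving out overexpression replicate 1 left SNHG7 alone, at 185 genes higher and 256 lower of 17706. SNHG7, SNHG17, SNHG14, SNHG1 and DANCR had the same direction in every alternative. So did many other tested members, among them SNHG3, SNHG30 and SNHG20, which were called in no alternative. The alternatives reuse the same libraries, so a kept direction does not set the named members apart.

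**Figure D3:**
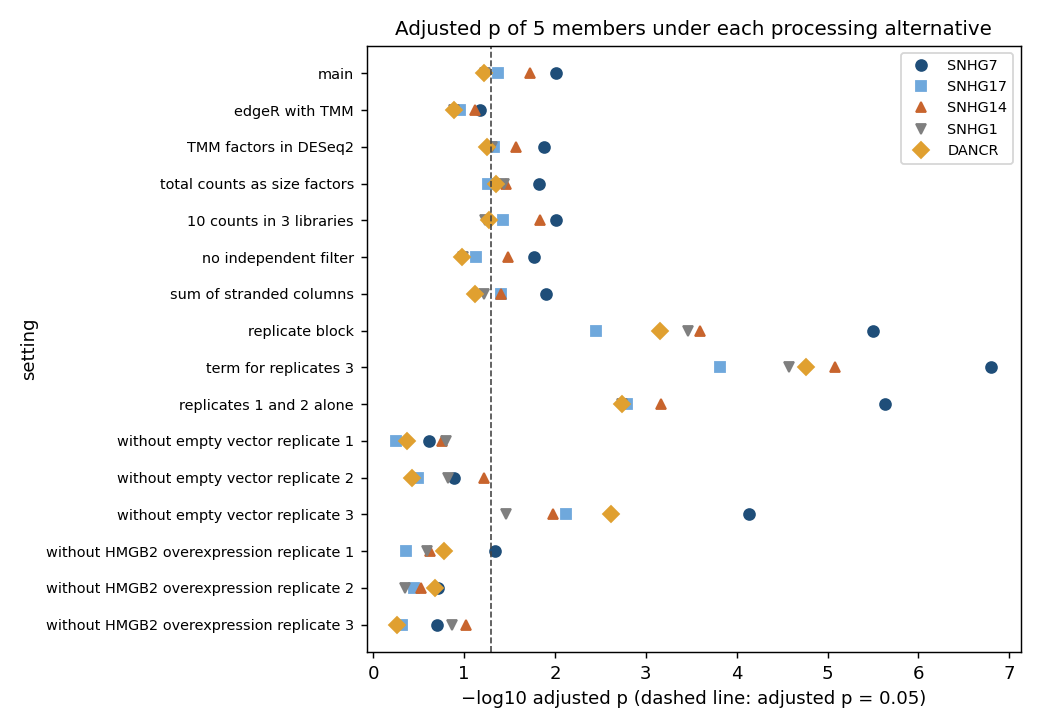
Adjusted p of SNHG7, SNHG17, SNHG14, SNHG1 and DANCR, as −log10 (horizontal axis), in the main test and under each alternative (vertical axis), with a dashed line at an adjusted p of 0.05. All 5 genes lie left of the line with edgeR, and all lie right of it with replicates 1 and 2 alone and without empty vector replicate 3.

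The members with a pyrimidine tract at the start were compared with the others by count alone. Of the 7 with the tract, none passed the test in DESeq2 or edgeR, 2 had an unadjusted p under 0.05 in DESeq2, and 3 of 7 were below 0, with a median log2 fold change of 0.04. Of the 16 tested members with a RefSeq start and no such tract, 3 were called, 8 had an unadjusted p under 0.05, 11 were below 0, and the median was -0.19. Over all genes tested, the shares were 4.94% called and 14.3% unadjusted. The number of genes in each class is small, and the ranges, -0.45 to 1.25 and -0.40 to 0.40, overlapped. The classes rest on annotated starts. Of the members whose RefSeq starts lie outside the GENCODE gene, SNHG14, GAS5 and SNHG3 are in the class without the tract. SNHG4, whose start lies only marginally outside, is in the class with it.

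The snoRNAs inside the members are shown for the genes that the counts reach and for SNHG7, because the box motifs distinguish the classes. The sequences are those of the GENCODE 44 transcripts on hg38, 5′ to 3′. In the C/D snoRNAs capitals mark the C box, TGATGA within the first 20 bases, and the D box, CTGA starting within the last 20 bases. In the H/ACA snoRNAs capitals mark the ACA that ends 3 bases before the 3′ end.
SNORA73B in SNHG3, chr1:28508559-28508762, plus strand: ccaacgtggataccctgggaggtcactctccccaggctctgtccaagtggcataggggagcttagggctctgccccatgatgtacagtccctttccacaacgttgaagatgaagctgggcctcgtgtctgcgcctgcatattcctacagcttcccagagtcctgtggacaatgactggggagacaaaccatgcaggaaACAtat
SNORD104 in SNHG25, chr17:64146083-64146152, plus strand: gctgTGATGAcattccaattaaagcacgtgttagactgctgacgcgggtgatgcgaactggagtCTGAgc
SNORD12B in ZFAS1, chr20:49280319-49280409, plus strand: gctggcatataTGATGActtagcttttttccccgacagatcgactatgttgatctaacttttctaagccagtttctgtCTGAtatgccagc
SNORD116-1 in SNHG14, chr15:25051477-25051571, plus strand: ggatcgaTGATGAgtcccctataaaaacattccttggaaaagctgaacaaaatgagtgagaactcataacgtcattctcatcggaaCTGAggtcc
SNORA17A in SNHG7, chr9:136726747-136726879, minus strand: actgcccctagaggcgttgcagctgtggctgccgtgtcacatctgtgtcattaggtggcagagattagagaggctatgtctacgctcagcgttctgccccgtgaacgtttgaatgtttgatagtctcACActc

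Searched on the strand of the transcript, both C/D boxes were found in 22.5% and the ACA in 30.8% of all 991 annotated snoRNA and scaRNA transcripts. GENCODE placed 145 snoRNA and scaRNA genes inside 31 of the members, and none inside GAS5, a known host of several C/D snoRNAs, so the snoRNAs of GAS5 are not in these counts of snoRNA genes. Of the 145, 110 had no count in any library and 11 had an adjusted p. Of these 11, 1 was called higher and 0 lower in DESeq2, with 2 higher and 0 lower at an unadjusted p under 0.05, and none was called in edgeR. Over all genes tested, 4.94% were called and 14.3% had an unadjusted p under 0.05, so 1 and 2 of 11 are small numbers near those shares. The 11 had a median log2 fold change of 0.86, and 9 of them were above 0. They were selected by counts that include the overexpression libraries, and no median of genes at a similar level was taken, so no shift is read from this. Of the 11, 7 averaged under 10 normalized counts and 6 were highest in overexpression replicate 3. Summed over the 145, overexpression replicate 2 was at 3.11 CPM, within the empty vector range of 2.62 to 3.42. Overexpression replicates 1 and 3 were above that range.

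SNORA73B, the U17 H/ACA snoRNA required for early cleavage of the ribosomal RNA precursor, was the called one. It was at 7.07, 22.1 and 20.4 normalized counts with the empty vector and at 89.9, 32.5 and 336.5 with HMGB2 overexpression, a log2 fold change of 3.21 (standard error 1.01, adjusted p = 0.0342 in DESeq2). The groups did not overlap, but the overexpression libraries differed more than 10-fold among themselves. Its host, SNHG3, was at 819, 766 and 1068 normalized counts against 750, 696 and 863, with a log2 fold change of -0.20 (standard error 0.16, adjusted p = 0.681 in DESeq2). The snoRNA and its host therefore had fold changes of opposite sign.

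The 2 libraries with the most SNORA73B also had the most multimapped reads, 10.6% in overexpression replicate 3 and 4.89% in overexpression replicate 1, against 2.58% to 3.96% in the other 4, among which the orders differed. The part of these reads in the result was not tested. Without overexpression replicate 3 the log2 fold change was 1.89 (DESeq2 adjusted p = 0.0582), and the call was also lost without empty vector replicate 1 (0.298), empty vector replicate 2 (0.131) or overexpression replicate 1 (0.116). Of the 50-base words of SNORA73B, 3.23% also occurred in other genes.

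The other 4 of the 5 most counted snoRNAs did not pass the test. SNORD104, inside SNHG25, was at 38.4, 43.4 and 53.7 normalized counts against 49.96, 41.4 and 67.5, a log2 fold change of 0.23 (standard error 0.33, adjusted p = 0.859 in DESeq2). SNORD12B, inside ZFAS1, was at 8.08, 6.20 and 19.3 against 12.7, 8.86 and 39.4, a log2 fold change of 0.86 (standard error 0.71, adjusted p = 0.686 in DESeq2). In both, replicate 3 was the highest of each group. SNORA71B, inside SNHG17, was at 17.2, 18.6 and 23.6 against 25.4, 11.8 and 19.1, and SNORD116-1, inside SNHG14, at 13.1, 7.97 and 3.22 against 8.17, 9.85 and 7.88. Their log2 fold changes were -0.07 (standard error 0.49, adjusted p = 0.981 in DESeq2) and 0.09 (standard error 0.74, adjusted p = 0.986 in DESeq2). In GENCODE, SNORD116-1 lies wholly within an exon of SNHG14, yet it had counts in every library. With that exon in the annotation used for counting, its reads would be shared with SNHG14 and set aside. The annotation release used for counting is not given, and whether these reads are of SNHG14 was not tested. Of the other tested SNORD116 copies, SNORD116-6 had the largest log2 fold change, 1.66 (standard error 0.87, adjusted p = 0.375 in DESeq2), with groups that did not overlap at 2.02, 1.77 and 5.37 against 11.8, 9.85 and 6.75 normalized counts. This copy was singled out after its values were seen, and 61.7% of its 50-base words also occur in other genes. SNORA74A, inside SNHG4, was the other snoRNA at an unadjusted p under 0.05 and was also named after its values were seen. It was at 0, 0.886 and 2.15 normalized counts against 8.18, 4.92 and 19.1, which are low counts. Its log2 fold change was 3.43 (standard error 1.19, adjusted p = 0.0722 in DESeq2).

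**Figure D4:**
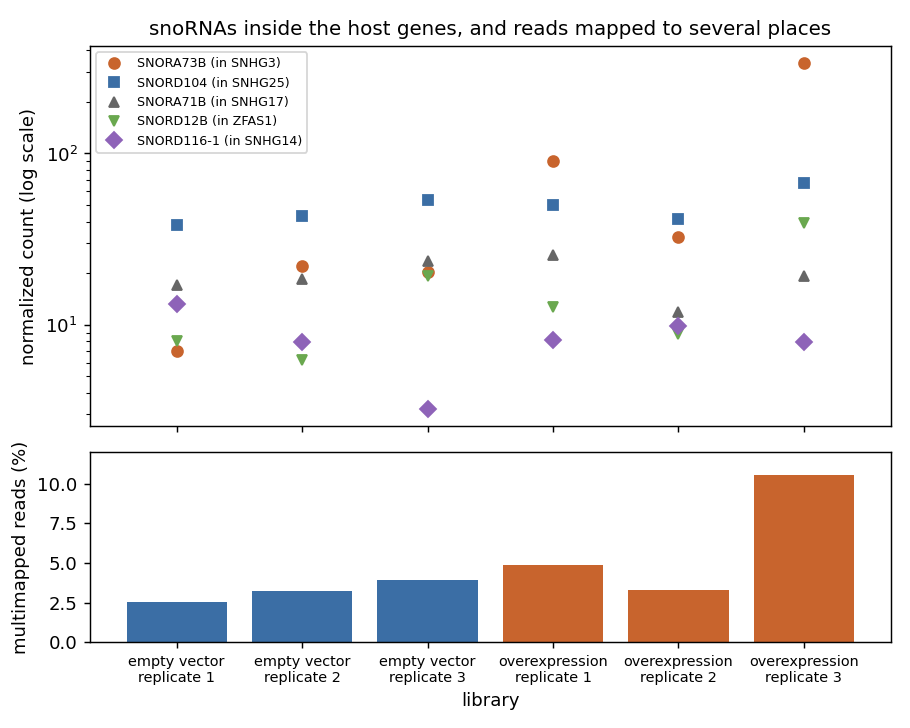
Normalized counts (log axis) of the 5 most counted snoRNAs inside members in each of the 6 libraries (upper panel), with the percentage of multimapped reads in the same libraries (lower panel). SNORA73B reaches 336.5 in overexpression replicate 3, the library with 10.6% multimapped reads, while SNORD104 stays between 38.4 and 67.5 in all libraries.

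The machinery that acts on host genes and snoRNAs was measured beside the members. Of 20 snoRNP proteins, among them the methyltransferase FBL and the pseudouridine synthase DKC1, 0 were called higher or lower in DESeq2 and 0 in edgeR, with 1 at an unadjusted p under 0.05, and log2 fold changes ran from -0.19 to 0.18. Of 20 nonsense-mediated decay factors, 1 was called lower and 0 higher, with 2 lower and 0 higher at an unadjusted p under 0.05 and none called in edgeR. These counts are near or below the shares over all genes, 4.94% called and 14.3% unadjusted, and say nothing particular of the list. The called factor was SMG5, an adaptor that recruits RNA-degrading enzymes to UPF1, at 6424, 6378 and 4546 normalized counts with the empty vector and 4313, 4312 and 3433 with HMGB2 overexpression. Its log2 fold change was -0.52 (standard error 0.16, adjusted p = 0.0318 in DESeq2). The groups did not overlap for SMG5, and empty vector replicate 3 was far below its group.

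The SMG5 call was lost without empty vector replicate 1 (DESeq2 adjusted p = 0.326) or 2 (0.234) and without overexpression replicate 1 (0.0935), 2 (0.0716) or 3 (0.290). Of 28 tested 5′TOP mRNAs of translation factors and related proteins, 0 were called in DESeq2 and 0 in edgeR, with 1 at an unadjusted p under 0.05, and their median log2 fold change was 0.06. Other genes that hold a snoRNA within their bounds numbered 314, of which 250 were tested, 7 were called higher and 7 lower (5.6% called), with a median of 0.03. The largest rises among them were in TRO (1.39, DESeq2 adjusted p = 0.00015), NCALD (1.13, adjusted p = 8.4e-05) and MIR31HG (0.78, adjusted p = 0.0328). The largest falls were in ENSG00000213963 (-1.02, DESeq2 adjusted p = 0.0231), ODC1, the first enzyme of polyamine synthesis (-0.71, adjusted p = 4.92e-09), and IARS1, the isoleucyl-tRNA synthetase (-0.62, adjusted p = 4.62e-08).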

How the data were processed

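RNA-seq was performed on poly(A) RNA from 6 A375 libraries. Per the labels, bcl2fastq 2.20, FastQC, Trimmomatic and STAR were used on GRCh38; the aligner version and annotation release are not given in the sources used here. The authors deposited raw counts per gene for 58302 IDs, without normalization, in unstranded and strand-specific columns. Unstranded counts were used; reads shared by overlapping genes or mapped to several places are not in them. Symbols came from GENCODE 44 (57532 IDs matched; the others held 0.0575% of counts).

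Groups were compared with DESeq2 1.42.0 in R 4.3.3 (default parameters, Wald test, as in the study's methods), and Benjamini-Hochberg adjustment covered all genes. edgeR 4.0.16 with TMM, other scalings and filters, the strand-specific sum, the replicate number as a block, a term for the third replicates and leaving out libraries were the alternatives. Both tools were tested on simulated data. Values per library are printed for called members and those averaging 1000 or more normalized counts, for called snoRNAs and the 5 most counted, and for other lists the 3 largest called changes per direction are named. snoRNAs and other hosts were found by coordinates, and lists of snoRNP proteins, nonsense-mediated decay factors, 5′TOP mRNAs and markers were written by hand. Members and lists were chosen with earlier results of these data known.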

Additional observations from a re-analysis of the deposited data

Results flagged for a closer look

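Multimapped reads, which enter no gene count, made up 10.6% of reads in HMGB2 overexpression replicate 3 and 4.89% in replicate 1, above the highest empty vector library at 3.96%.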

How the results depend on the processing

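With edgeR, 215 genes were higher and 255 lower, with 0 and 0 members, 0 snoRNAs inside members higher, 4 and 4 other host genes and 0 decay factors lower. Without the independent filter 1 member was called higher and 1 lower, with 0 snoRNAs higher and 0 decay factors lower, and with total counts 2 members were higher. With the replicate number as a block (replicate block), calls were 886 genes higher and 940 lower, 2 and 6 members, 20 and 13 other hosts, 3 decay factors lower, and 3 and 1 5′TOP mRNAs; deviations of same-numbered libraries correlated at 0.091, 0.14 and 0.35, so the numbers were not taken as pairs, and empty vector replicate 1 correlated best with overexpression replicate 2. A term for the third replicates gave 1374 and 1359 genes, 3 and 7 members, 32 and 22 other hosts, 1 snoRNP protein lower, 1 and 3 decay factors, and 6 and 1 5′TOP mRNAs. Replicates 1 and 2 alone gave 1203 and 1418 genes, 3 and 6 members, 32 and 25 other hosts, 1 snoRNP protein lower, 6 decay factors lower, and 4 and 4 5′TOP mRNAs. Leaving out 1 library gave 155 to 1334 genes higher and 208 to 1520 lower, 0 to 3 and 0 to 4 members, 0 to 1 snoRNAs higher, 4 to 31 and 2 to 25 other hosts, 0 to 1 snoRNP proteins lower, 0 to 1 and 0 to 9 decay factors, 0 to 5 and 0 to 3 5′TOP mRNAs, and member medians from -0.25 to -0.042. The cause was not tested. HMGB2 was called in every alternative (0.98 to 1.09). Log2 fold changes that were small, or were of low-count genes, turned sign when 1 library was left out. GAS5 ran from -0.041 to 0.10, SNHG5 from -0.038 to 0.18, SNHG6 from -0.039 to 0.11 and SNHG16 from -0.16 to 0.021. SNHG19 ran from -0.037 to 0.10, ZFAS1 from -0.014 to 0.19, SNHG4 from -0.29 to 0.095 and SNHG21 from -0.16 to 0.11. SNHG10 ran from -0.22 to 0.24 and SNHG25 from -0.72 to 0.017. SNORA71B ran from -0.36 to 0.18, SNORD12B from -0.040 to 1.5 and SNORD116-1 from -0.019 to 0.61. In the main test SNHG25 was at -0.38 and SNORD12B at 0.86. With replicates 1 and 2 alone SNHG4 was at 0.072 and SNHG10 at -0.20.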
